A study of Mus musculus with 6 samples.

Results

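Coagulation and fibrinolysis genes of endothelium were followed in RNA-Seq libraries of endothelial cells (ECs) sorted from mouse spinal cord. The members are the 8 rows of the count table, among 56748 genes, whose names are *Vwf*, *Thbd*, *Procr*, *Tfpi*, *F3*, *Plat*, *Plau* and *Anxa2*. The rule is this list of names, grouped by function, and each name occurs in 1 row. The libraries come from 3 control mice and 3 *TDP-43iΔEC* mice, and all of them were collected at postnatal day (P) 16. Control mice carried the floxed allele *Tardbpflox* without a Cre transgene, and *TDP-43iΔEC* mice carried *Cdh5(PAC)-CreERT2* together with *Tardbpflox*. Tamoxifen (1 mg/mL) was the labelled treatment of every mouse in both groups, at P5 to P7. The Cre is expressed from the *Cdh5* promoter, so that recombination is directed to ECs, and controls lack both the Cre and the deletion. The labels number 3 libraries per genotype and the design gives 3 animals per group, so p values were read as describing the spread between animals. The comparison asks how the loss of TDP-43, an RNA-binding protein encoded by *Tardbp*, changes the transcripts of spinal cord ECs.

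Blood is kept fluid by the endothelium it touches. Clotting starts when tissue factor, the product of *F3*, meets factor VII, and quiescent ECs oppose it with tissue factor pathway inhibitor (*Tfpi*) on their surface. Thrombomodulin (*Thbd*) and the endothelial protein C receptor (*Procr*) turn thrombin towards the activation of protein C, an anticoagulant. Fibrin that has formed is dissolved by plasmin, which is cut from plasminogen by tissue plasminogen activator (*Plat*) or urokinase (*Plau*). Annexin A2 (*Anxa2*) with its partner S100A10 forms a surface complex on which plasminogen and tissue plasminogen activator assemble. Von Willebrand factor (*Vwf*), stored in Weibel-Palade bodies, tethers platelets and carries factor VIII.

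Total counts per library of controls lay between 44041329 and 47270654, and those of *TDP-43iΔEC* mice between 25704871 and 45010088. A floor of 3 counts corresponded to 0.0635 to 0.117 CPM (counts scaled to a library of 1000000), and intervals of this kind cover counting error only. Normalized counts of *Tardbp* were 1972, 2279 and 2070 for control mice 1, 2 and 3, against 980, 600 and 433 for the *TDP-43iΔEC* mice. Its log2 fold change was -1.62 ± 0.41 (SE, n = 3 per group, limma with Benjamini-Hochberg adjustment, adjusted p = 0.287), and the groups did not overlap. GENCODE M39 places 33.1% of the exonic bases of *Tardbp* opposite exons of another gene, and the library type does not record strand. On a multidimensional scaling plot of the 500 leading genes per pair of libraries, control mouse 2 stood apart on the first axis (7.26, the others from -2.27 to -0.72). *TDP-43iΔEC* mouse 1 stood apart on the second axis (-6.41, the others from 0.58 to 1.87). Control mouse 2 also had the fewest genes with a count, 12972, against 14103 to 16557 in the other libraries. The summed level of 6 endothelial marker genes (*Pecam1*, *Cldn5*, *Kdr*, *Flt1*, *Cdh5*, *Tek*) was 9091 to 12990 CPM in controls and 9108 to 11640 CPM in *TDP-43iΔEC* mice, above the sums for mural cells, glia and neurons in every library, while red blood cell genes reached 6336 to 9759 CPM in controls. In control mouse 3 the red blood cell sum, 9759 CPM, was above the endothelial sum, 9091 CPM. The conjugated antibodies that the study lists include one to TER-119, an erythroid surface marker.

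None of the members passed an adjusted p of 0.05 in the comparison of *TDP-43iΔEC* with control mice (limma with Benjamini-Hochberg adjustment over 13107 tested genes), where 0.137% of all tested genes did. Of the 8 members, 7 passed the filter on low counts and *F3* did not. The unadjusted limma p was under 0.05 for 1 member, *Anxa2*, which was higher, and this holds for 9.27% of all tested genes, with 4.26% on the higher side. *Anxa2* was also the member whose groups did not overlap, as was found for 15.0% of all tested genes, 7.92% with the *TDP-43iΔEC* mice above and 7.11% with them below. The median log2 fold change of the 7 tested members was -0.09, beside -0.02 for all tested genes. Without control mouse 2, 2 members had an unadjusted p under 0.05 (*Anxa2* and *Tfpi*) and 3 had groups that did not overlap (*Anxa2*, *Tfpi* and *Plau*). In that fit of 2 against 3 mice the shares over all tested genes were 9.15% and 23.3%. In sorted bulk RNA, fewer cells of a type that carries a transcript and less of that transcript per cell cannot be told apart.

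**Figure D1:**
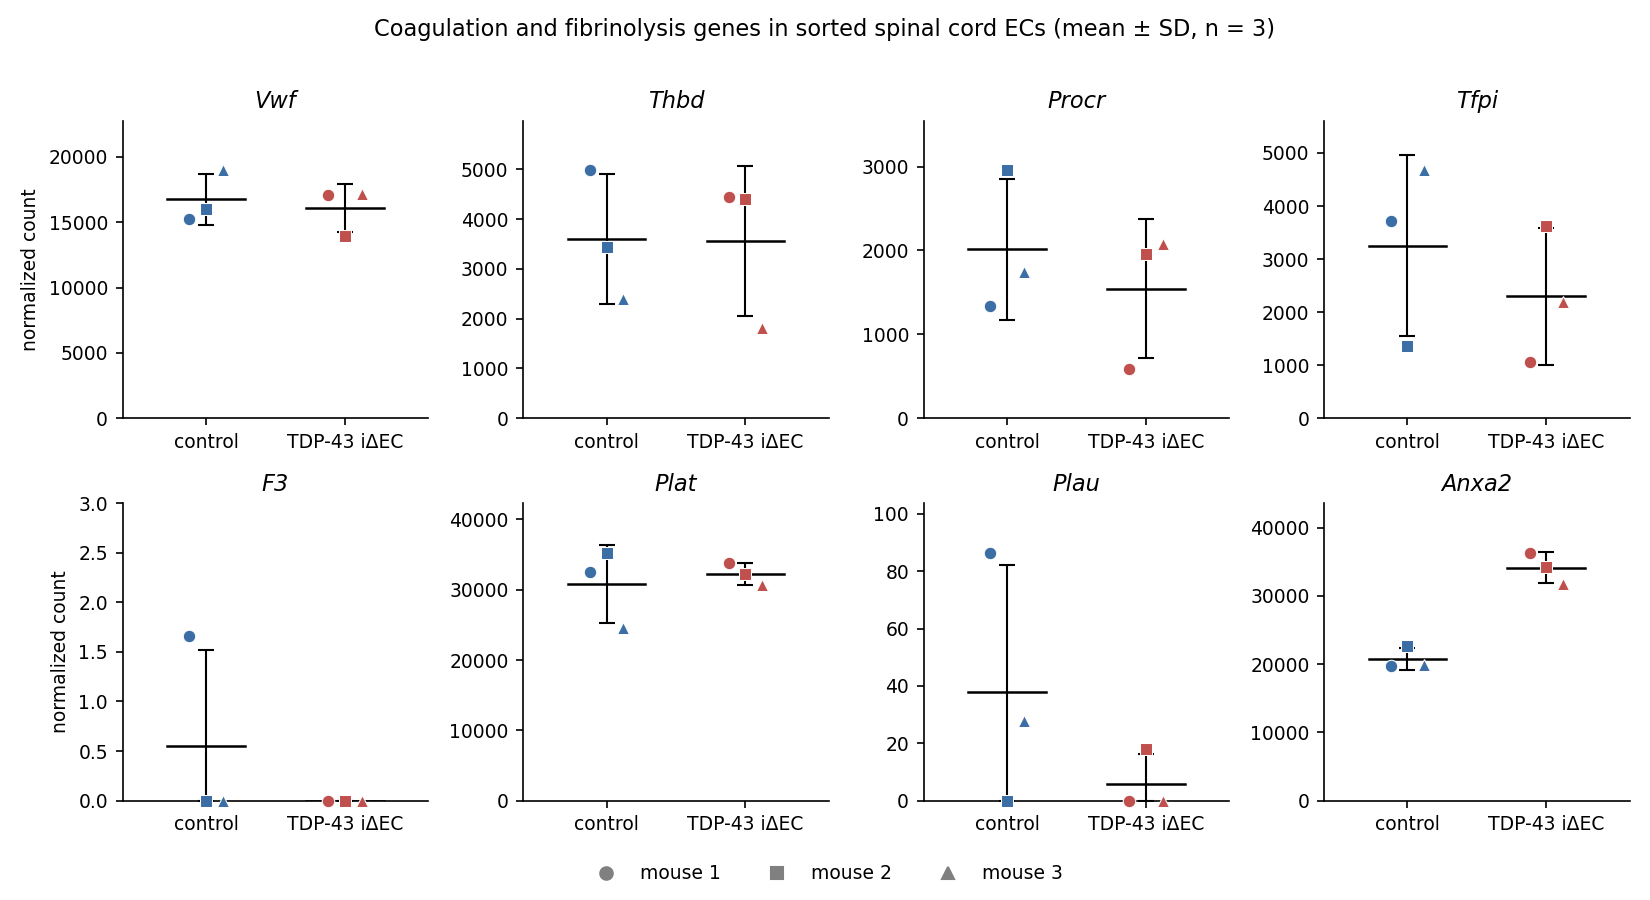
Normalized counts (deposited counts divided by DESeq2 size factors, linear axes from 0) of the 8 members in each mouse, control in blue and *TDP-43iΔEC* in red. Bars give the mean and SD (n = 3), lower error bars stop at 0, and *Anxa2* is the member in which the *TDP-43iΔEC* mice (31781 to 36357) lie wholly above the controls (19693 to 22609).

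*Vwf* (chr6:125523737-125663642, plus strand, GRCm39) was abundant and varied little between mice. Control mice 1, 2 and 3 had 15242, 15987 and 18988 normalized counts, compared with 17072, 13946 and 17166 in *TDP-43iΔEC* mice 1, 2 and 3. The groups overlapped, and the highest of the 6 libraries held 1.36 times the lowest. Its log2 fold change was -0.09 ± 0.16 (SE, n = 3 per group), with a 95% interval from -0.47 to 0.28 and an adjusted p of 0.876 (limma with Benjamini-Hochberg adjustment). The sign turned to 0.10 when only library size was used for scaling and to 0.07 with scaling to endothelial markers.

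Genes of platelet adhesion and storage granules were measured beside *Vwf* as a list of 14, of which 6 passed the filter and 2 (*Adamts13*, the protease that trims von Willebrand factor, and *Gp5*) had no count in any library. None of the 6 had an unadjusted p under 0.05. Of the 6, 5 had a positive log2 fold change, and their median was 1.63. Among all tested genes 49.3% were positive, with a median of -0.02. The 3 with a count in every library had a median of 0.52. *Cd63* (2.90 ± 2.41, SE, limma) and *Mmrn1* (2.29 ± 3.24) were at 0 in control mouse 2. Without that mouse they had -0.28 and -0.69, while *Itgb3*, also at 0 there, had 3.20. *Selp*, the P-selectin of Weibel-Palade bodies, had 25 counts in control mouse 1, 14 in *TDP-43iΔEC* mouse 2 and 0 in the other 4 libraries. *F8*, the carrier's cargo factor VIII, had 513 counts in *TDP-43iΔEC* mouse 1 and 0 elsewhere. *Mmrn2*, an endothelial matrix multimerin, was the most abundant tested gene of the list per length and had a log2 fold change of 0.52 ± 0.48 (SE, limma), from 0.095 without control mouse 2 to 1.00 without control mouse 1. *Stxbp5*, a regulator of granule secretion, had 589, 643 and 238 normalized counts in controls and 747, 809 and 1420 in *TDP-43iΔEC* mice, so that its groups did not overlap, with a limma adjusted p of 0.595. The lowest adjusted p of the list, 0.570, was that of *Itgb3*, the β3 integrin shared by ECs and platelets. Its unadjusted p was 0.00604 with DESeq2 (adjusted p = 0.175) and 0.00962 with limma without *TDP-43iΔEC* mouse 3 (adjusted p = 0.533). *Itgb3* had 34.9, 0 and 60.9 normalized counts in controls and 1189, 842 and 26.9 in *TDP-43iΔEC* mice, and the groups overlapped. The platelet markers *Pf4*, *Ppbp*, *Itga2b*, *Gp9*, *Gp1ba* and *Gp1bb* summed to 2.14 to 9.83 CPM in controls. In *TDP-43iΔEC* mice they summed to 0.489 to 8.36 CPM, and the groups overlapped. *Ppbp* and *Gp9* were at 0 in all *TDP-43iΔEC* libraries, and *Gp9* was also at 0 in control mice 2 and 3. *Itga2b* had 244, 35 and 118 counts in controls and 19, 167 and 86 in *TDP-43iΔEC* mice. Exons of other genes on the same strand share 100% of the exonic bases of *Gp1bb*, so its counts are uncertain.

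Thrombomodulin and the protein C receptor varied more between mice than between genotypes. *Thbd* (chr2:148216045-148250201, minus strand) had 4987, 3441 and 2396 normalized counts in controls, compared with 4457, 4400 and 1815 in *TDP-43iΔEC* mice. The lowest value in each group was that of its mouse 3, and the groups overlapped throughout. Its log2 fold change was -0.02 ± 0.40 (SE, n = 3 per group, 95% interval -0.92 to 0.88, limma adjusted p = 0.993), and the sign turned with DESeq2 size factors (0.02), with library size (0.16) and with endothelial marker scaling (0.10). *Procr* (chr2:155593031-155597397, plus strand) had 1339, 2957 and 1740 normalized counts in controls and 592, 1955 and 2082 in *TDP-43iΔEC* mice. *TDP-43iΔEC* mouse 1, which stood apart on the scaling plot, was the lowest, and the 2 other *TDP-43iΔEC* mice lay within the control range. The log2 fold change of *Procr* was -0.73 ± 0.53 (SE, 95% interval -1.93 to 0.47, limma adjusted p = 0.668), and it was 0.04 without *TDP-43iΔEC* mouse 1 and -0.42 without control mouse 2.

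The balance of the protein C receptors within each library does not depend on scaling between libraries. The *Thbd* count was 3.72, 1.16 and 1.38 times the *Procr* count in controls and 7.53, 2.25 and 0.872 times in *TDP-43iΔEC* mice. The log2 ratio differed by 0.44 (*TDP-43iΔEC* minus control, 2-sided exact permutation p = 0.7, adjusted p = 0.7 over 4 gene pairs), which is within the spread of either group, and by -0.37 without *TDP-43iΔEC* mouse 1.

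Among 12 genes of the protein C pathway and of thrombin receptors, 8 passed the filter. An unadjusted limma p under 0.05, found for 9.27% of all tested genes, was reached by 1 of them, in the lower direction. This was *Serpine2*, which encodes protease nexin-1, a cell-surface serpin that inhibits thrombin, urokinase and tissue plasminogen activator. *Serpine2* (chr1:79763323-79839144, minus strand) had 18074, 23438 and 19067 normalized counts in controls and 8604, 7640 and 12314 in *TDP-43iΔEC* mice. Every *TDP-43iΔEC* value lay below every control value. The fitted log2 fold change was -1.17 ± 0.20 (SE, n = 3 per group, 95% interval -1.62 to -0.71, unadjusted p = 0.00026, limma adjusted p = 0.101). It passed the threshold with DESeq2 (adjusted p = 0.000852), without a filter on low counts (adjusted p = 0.0349) and with at least 10 counts in every library (adjusted p = 0.0479). The adjusted p of *Serpine2* ran from 0.000852 to 0.517 over 16 alternatives, and its log2 fold change from -1.32 to -0.97.

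None of the other tested genes of that list had an unadjusted p under 0.05. *Klf2*, a shear-responsive transcription factor that maintains thrombomodulin, had 3835, 3702 and 4225 normalized counts in controls and 3632, 2668 and 3670 in *TDP-43iΔEC* mice. The groups did not overlap, and the log2 fold change was -0.28 ± 0.23 (SE, limma adjusted p = 0.707). It was -0.14 without *TDP-43iΔEC* mouse 2 and -0.09 with library size only. *Klf4*, a related factor, had a log2 fold change of 0.03 ± 0.34, and *Pros1*, the cofactor protein S, one of -0.05 ± 0.47. *Proc*, *Serpina5* and *F2rl2* had no count in any library.

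Tissue factor was at the floor of detection and its inhibitor was well measured. *F3* (chr3:121516610-121528820, plus strand) had 2 counts in control mouse 1 and 0 in the other 5 libraries, so no fold change can be given. Exons of other genes lie opposite 20.7% of its exonic bases. With counting error alone considered, a count of 0 allows a level of up to 0.0635 to 0.117 CPM, depending on the library. Transcripts lost before counting, in amplified low-input libraries, are not covered by this limit. *Tfpi* (chr2:84263195-84307164, minus strand) had 3709, 1366 and 4677 normalized counts in controls and 1065, 3624 and 2194 in *TDP-43iΔEC* mice. The 2 lowest values were those of control mouse 2 and *TDP-43iΔEC* mouse 1, the libraries that stood apart, and the groups overlapped. Against a floor of 3 *F3* counts per library, which covers counting error only, *Tfpi* counts were at least 469-fold higher in every library. In control mouse 3 they were at least 1921-fold higher than this floor.

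For *Tfpi* the fold change depended on which mice were included. Over all 6 mice the log2 fold change was -0.66 ± 0.59 (SE, 95% interval -1.99 to 0.66, limma adjusted p = 0.720). Without control mouse 2 it was -1.20 (unadjusted p = 0.0257, limma adjusted p = 0.494), and the remaining groups did not overlap. Without *TDP-43iΔEC* mouse 1 it was -0.06 (limma adjusted p = 0.992). Mice that did not stand apart moved it as well, to -1.10 without *TDP-43iΔEC* mouse 2 and -0.30 without control mouse 3.

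Of 18 genes of the clotting cascade, its liver-made factors and their processing enzymes, 7 passed the filter, 7 had no count in any library and none had an unadjusted p under 0.05. The genes without a count were *F9*, *F11*, *F12*, *F13a1*, *Fga*, *Fgb* and *Fgg*. *Ggcx*, the γ-carboxylase of vitamin K-dependent clotting factors and of protein S, had the lowest p. Its normalized counts were 1066, 939 and 695 in controls and 2257, 1279 and 1281 in *TDP-43iΔEC* mice. The *TDP-43iΔEC* values all lay above the controls, with a log2 fold change of 0.85 ± 0.40 (SE, limma adjusted p = 0.549). That log2 fold change was 0.49 without *TDP-43iΔEC* mouse 1 (limma unadjusted p = 0.285). With library size only it was 1.04 (limma unadjusted p = 0.0307, adjusted p = 0.470). *Vkorc1*, which recycles vitamin K, had a log2 fold change of -0.14 ± 0.28, and *Mcfd2* and *Lman1*, the cargo receptor pair for factors V and VIII, had 0.01 ± 0.24 and -0.26 ± 0.36. *Vkorc1* shares 29.5% of its exonic bases with exons of other genes on the same strand, so its counts are uncertain. *Tfpi2*, a related inhibitor of trypsin-like proteases, had 190, 717 and 406 normalized counts in controls and 976, 623 and 838 in *TDP-43iΔEC* mice, which overlapped. *Hs3st1*, the sulfotransferase that makes antithrombin-binding heparan sulfate, had a log2 fold change of -1.38 ± 0.94 (SE, limma adjusted p = 0.648), with -0.74 without *TDP-43iΔEC* mouse 3 and -1.92 without mouse 2.

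Tissue plasminogen activator was among the most abundant transcripts of these genes, and urokinase was barely detected. *Plat* (chr8:23247709-23272871, plus strand) had 32567, 35284 and 24606 normalized counts in controls and 33861, 32233 and 30643 in *TDP-43iΔEC* mice. The *TDP-43iΔEC* mice all lay inside the control range. The log2 fold change was 0.05 ± 0.15 (SE, n = 3 per group, 95% interval -0.29 to 0.40, limma adjusted p = 0.927), and it was -0.02 with the GC and length trend removed and -0.09 without control mouse 3. *Plau* (chr14:20886722-20893453, plus strand) had 104, 0 and 34 counts in controls and 0, 15 and 0 in *TDP-43iΔEC* mice. The groups overlapped at 0, and the fitted fold change, which depends on the count added to zeros, had an adjusted p of 0.788 (limma with Benjamini-Hochberg adjustment). In the annotation 15.1% of the exonic bases of *Plau* lie opposite exons of another gene, so part of these few counts is uncertain. *Plat* counts exceeded *Plau* counts 377-fold to 1803-fold in the 3 libraries with a *Plau* count. In the others they exceeded a floor of 3 counts at least 7203-fold. That floor covers counting error only, so it does not bound the ratio of the transcripts.

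Per length of transcript, *Plat* and *Anxa2* stood above the other members in both genotypes. With counts per kb of annotated exons in a library scaled to 1000000, *Plat* reached 370 ± 76.0 (SD, n = 3) in controls and 439 ± 61.9 in *TDP-43iΔEC* mice, and *Anxa2* 343 ± 21.6 and 644 ± 101. *Vwf* (83.3 ± 8.95 and 90.3 ± 8.19), *Procr* (80.5 ± 27.5 and 70.5 ± 37.1), *Tfpi* (44.8 ± 24.1 and 35.7 ± 22.4) and *Thbd* (42.0 ± 19.0 and 47.3 ± 23.1) followed on this scale. *Plau* was at 1.33 ± 1.61 in controls and 0.238 ± 0.412 in *TDP-43iΔEC* mice, and *F3* at 0.0166 ± 0.0287 and 0. In controls the differences between *Plat* and *Anxa2*, between *Vwf* and *Procr* and between *Tfpi* and *Thbd* were smaller than the larger SD of each pair, while *Procr* lay above *Tfpi* in all 3 controls. The order among close neighbours depended on the gene model, since with the canonical transcript as length *Anxa2* (752 ± 43.1) came above *Plat* (626 ± 124) in controls and *Tfpi* (80.5 ± 42.7) above *Procr* (64.7 ± 23.6). In *TDP-43iΔEC* mice *Anxa2* was above *Plat* in every library with either length.

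**Figure D2:**
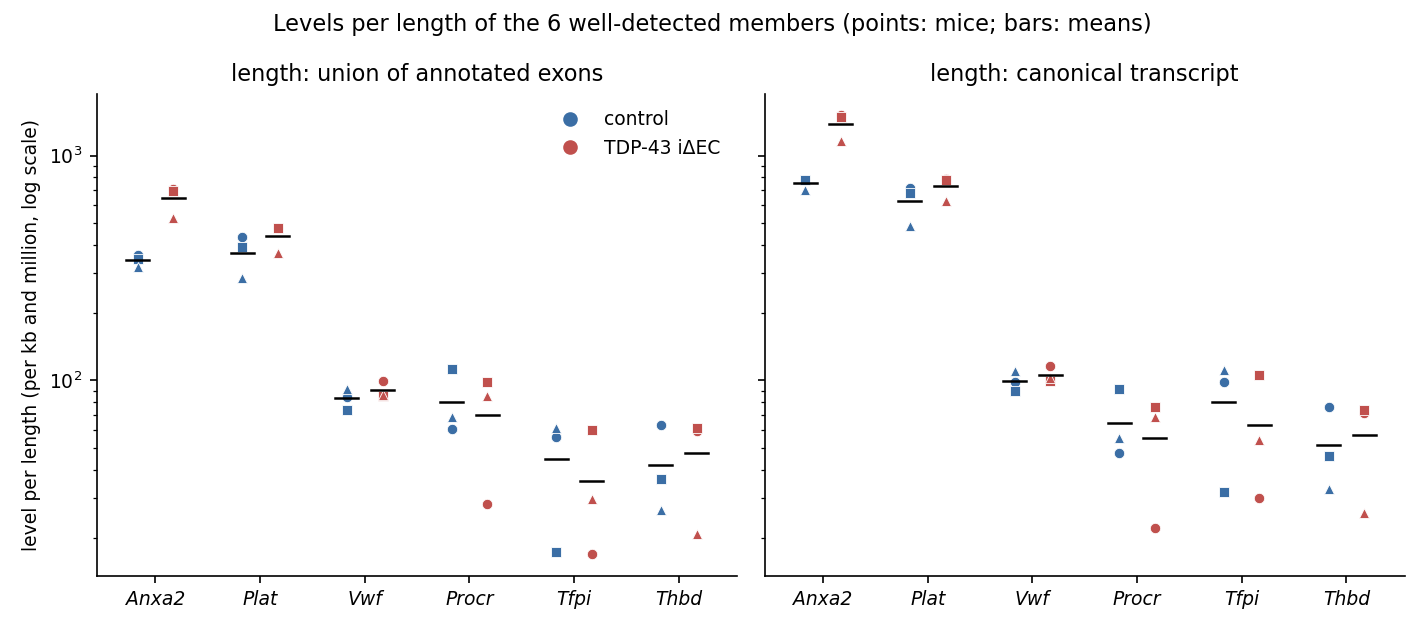
Levels of the 6 well-detected members per kb, in libraries scaled to 1000000 (log axis), using the union of annotated exons (left) or the canonical transcript (right) as length. Each point is a mouse (circle, square and triangle for mice 1, 2 and 3) and each bar a group mean, with *Anxa2* and *Plat* above the other 4 members in every library.

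*Anxa2* was the member with a difference larger than the spread between mice. *Anxa2* (chr9:69360542-69399077, plus strand) had 19693, 22609 and 19918 normalized counts in controls 1, 2 and 3, compared with 36357, 34292 and 31781 in *TDP-43iΔEC* mice 1, 2 and 3. The lowest *TDP-43iΔEC* mouse lay above the highest control, and within each group the highest library held 1.15 and 1.14 times the lowest. This gave a log2 fold change of 0.69 ± 0.13 (SE, n = 3 per group, 95% interval 0.41 to 0.98), a 1.62-fold higher level in *TDP-43iΔEC* mice. The unadjusted limma p was 0.000389, rank 39 of 13107 genes, and the adjusted p was 0.129 (Benjamini-Hochberg), so the call was not made. An exact permutation test of the log2 normalized counts gave p = 0.1 (2-sided), the smallest that 3 against 3 mice allow. The adjusted p passed the threshold with DESeq2 (log2 fold change 0.72, adjusted p = 6.28e-05) and without a filter on low counts (0.71, adjusted p = 0.0141). Over 16 alternatives the log2 fold change of *Anxa2* ran from 0.63 to 0.88, its unadjusted p stayed at or under 0.00401, and its adjusted p ran from 6.28e-05 to 0.556.

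**Figure D3:**
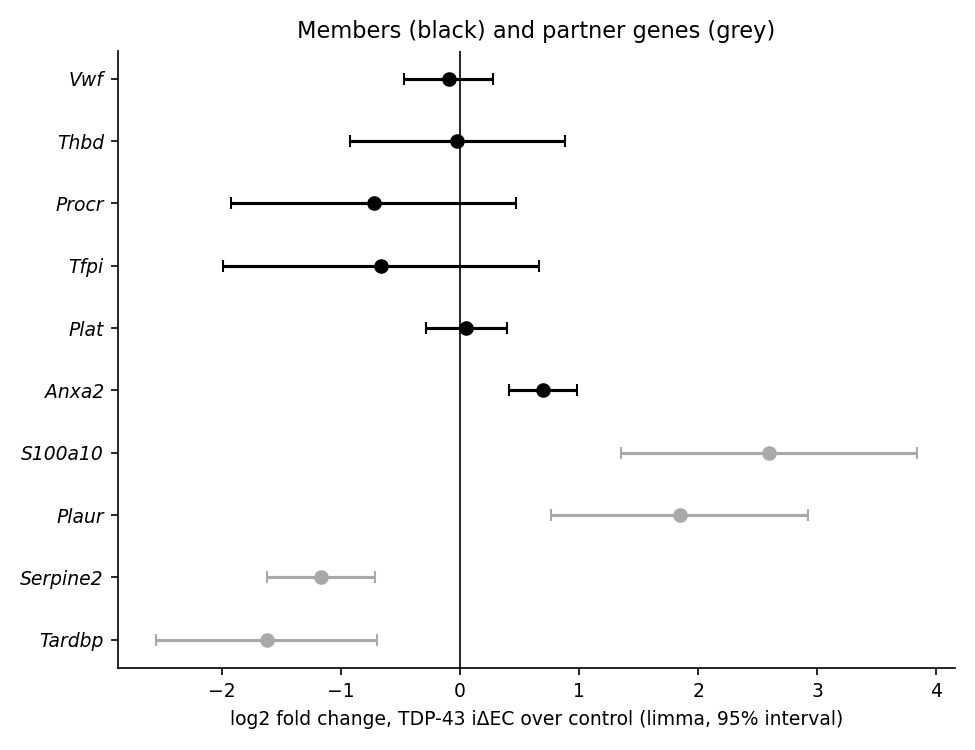
Log2 fold change (*TDP-43iΔEC* over control) with its 95% interval from limma for the 6 well-detected members (black) and for partner genes and *Tardbp* (grey). The interval of *Anxa2* (0.41 to 0.98) lies above 0, as do those of *S100a10* and *Plaur*, while the intervals of *Vwf*, *Thbd*, *Procr*, *Tfpi* and *Plat* span 0.

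The partner of annexin A2 lay above the controls as well, and its call was not made either. *S100a10* (chr3:93462213-93474510, plus strand) had 311, 380 and 347 normalized counts in controls and 2243, 1477 and 3023 in *TDP-43iΔEC* mice. The groups were separated by a wide gap. In limma the log2 fold change was 2.59 ± 0.55 (SE, n = 3 per group, 95% interval 1.35 to 3.83, unadjusted p = 0.0011, limma adjusted p = 0.218), and its adjusted p ran from 6.67e-07 (DESeq2, the 1 of 16 alternatives past the threshold) to 0.524. Within each library *Anxa2* counts were 63.2, 59.4 and 57.3 times *S100a10* counts in controls and 16.2, 23.2 and 10.5 times in *TDP-43iΔEC* mice. This ratio, which no scaling between libraries can alter, was 3.79-fold lower in *TDP-43iΔEC* mice (log2 difference -1.92, exact permutation p = 0.1, the smallest possible, adjusted p = 0.4 over 4 gene pairs). No other gene's transcript shared at least 51 bp at 97% identity with *Anxa2*, and 1.49% of the canonical *S100a10* transcript is shared with another gene.

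The urokinase receptor was the other fibrinolysis gene with an unadjusted limma p under 0.05, which 9.27% of all tested genes had. *Plaur* (chr7:24161875-24175394, plus strand) had 2144, 542 and 1830 normalized counts in controls and 4783, 3717 and 6384 in *TDP-43iΔEC* mice. All *TDP-43iΔEC* mice lay above the controls, of which control mouse 2 was the lowest. The log2 fold change was 1.84 ± 0.48 (SE, n = 3 per group, 95% interval 0.76 to 2.93, unadjusted p = 0.0039, limma adjusted p = 0.296), and it was 1.21 without control mouse 2. DESeq2 gave 1.72 with an adjusted p of 0.0447, and over 16 alternatives the adjusted p of *Plaur* ran from 0.0447 to 0.622. The ligand of this receptor, *Plau*, was the scarce gene described above, with 0 counts in 3 of the 6 libraries. Its ratio to *Plaur*, with 0.5 added to each count, gave an exact permutation p of 0.2 (adjusted p = 0.4 over 4 gene pairs). With 5 added to each count the log2 ratio differed by -3.35 (exact permutation p = 0.1, unadjusted, the smallest that 3 against 3 allows).

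Of 10 fibrinolysis genes listed beside the members, 6 passed the filter and 2 (*Plg*, which encodes plasminogen, and *Serpinf2*, its plasmin inhibitor) had no count in any library. The median log2 fold change of the 6 was 2.22, beside -0.02 for all tested genes, and none passed an adjusted p of 0.05. Of these, *Thbs1*, which encodes thrombospondin-1 (98.9, 0 and 0 normalized counts in controls, log2 fold change 5.37 ± 2.64), and *Lrp1*, a clearance receptor (57.4, 0 and 325, 2.85 ± 2.21), had libraries at 0. The 4 genes with a count in every library had a median of 0.68. *Plgrkt*, a membrane receptor for plasminogen, had 1491, 1575 and 1365 normalized counts in controls and 1302, 472 and 1174 in *TDP-43iΔEC* mice, where every value lay below the controls (log2 fold change -0.69 ± 0.43, limma adjusted p = 0.616). Without *TDP-43iΔEC* mouse 2 it was -0.27, and without mouse 1 it was -1.09. *Vtn*, the matrix protein vitronectin, was the most abundant tested gene of the list per length and had a log2 fold change of -0.48 ± 0.40 (SE), with -0.91 without *TDP-43iΔEC* mouse 2 (limma unadjusted p = 0.0425, adjusted p = 0.571) and -0.16 without mouse 1. Across all 5 lists (58 genes, 30 tested), 3 genes had an unadjusted p under 0.05 and 7 had groups that did not overlap, shares to be read against 9.27% and 15.0% of all tested genes.

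**Figure D4:**
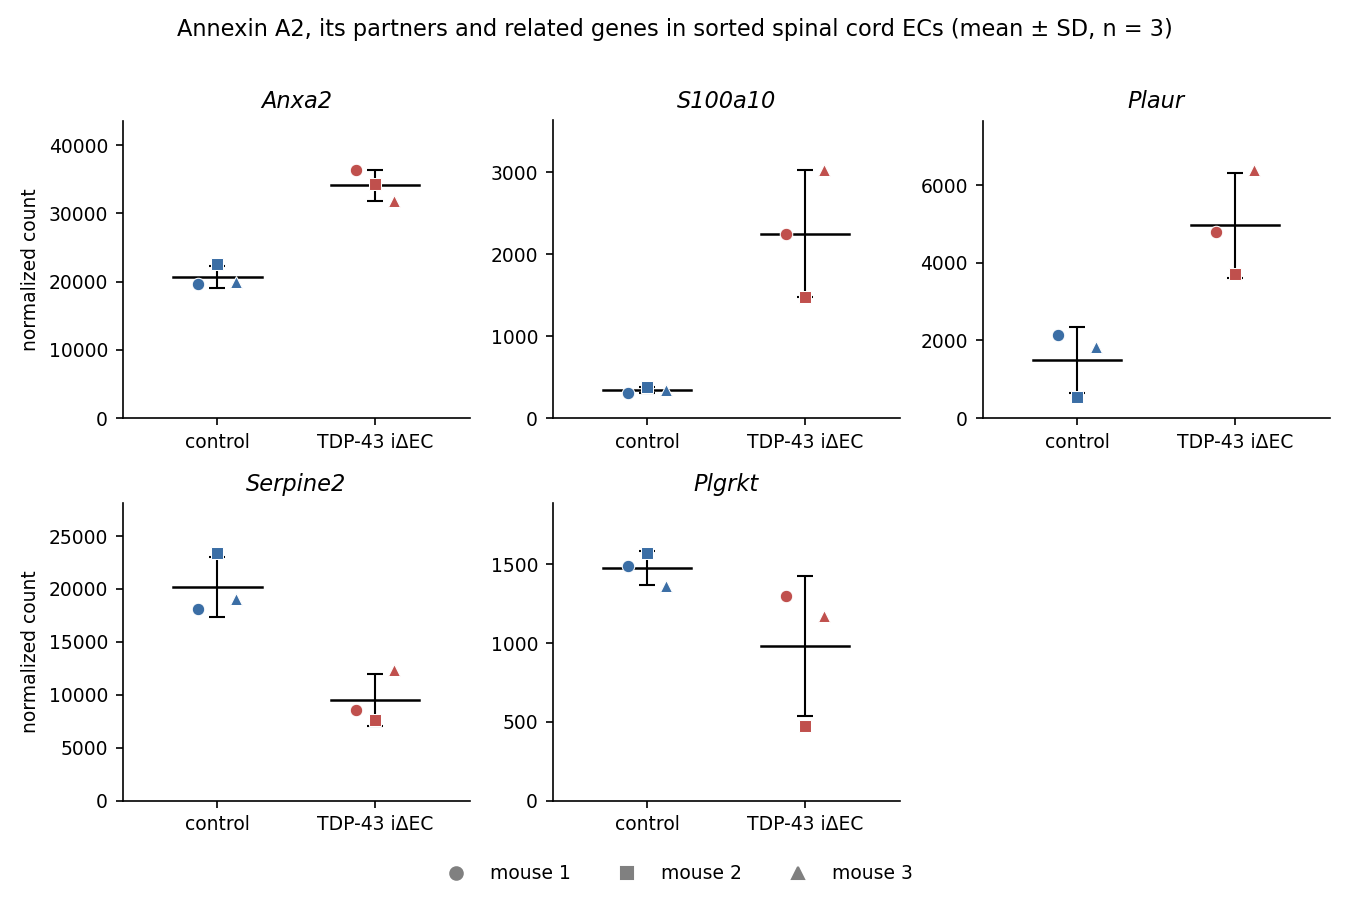
Normalized counts (linear axes from 0) of *Anxa2*, *S100a10*, *Plaur*, *Serpine2* and *Plgrkt* in each mouse, with mean and SD (n = 3, lower error bars stop at 0). The 3 *TDP-43iΔEC* mice lie above the controls for *Anxa2*, *S100a10* and *Plaur* and below them for *Serpine2* and *Plgrkt*.

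Marker sums of red blood cells and of neurons did not overlap between the groups (exact permutation p = 0.1 each, the smallest that 3 against 3 allows). Those of oligodendrocytes and astrocytes overlapped (exact permutation p = 0.3 and 0.4). Red blood cell genes summed to 6336 to 9759 CPM in controls and 2197 to 2909 CPM in *TDP-43iΔEC* mice, and 5 neuron genes to 4.995 to 11.1 CPM and 0.815 to 2.16 CPM, with *Map2*, *Nefl* and *Snap25* at 0 in all *TDP-43iΔEC* libraries. Oligodendrocyte genes summed to 297, 398 and 561 CPM in controls and 530, 59.4 and 14.9 CPM in *TDP-43iΔEC* mice. Astrocyte genes summed to 15.4 to 26.9 CPM in controls and to 27.7, 7.26 and 0.506 CPM in *TDP-43iΔEC* mice, where *Aqp4* was at 0. *TDP-43iΔEC* mouse 1 thus lay apart from mice 2 and 3 in both glial sums. The ribosomal RNA gene *Rn18s-rs5* took 14.8% to 18.5% of counts in controls and 8.04% to 13.6% in *TDP-43iΔEC* mice. The part of these shifts in the *Anxa2*, *S100a10*, *Plaur* and *Serpine2* results was not tested. Fibroblast genes summed to 35.4 to 40.8 CPM in controls and 12.8 to 43.9 CPM in *TDP-43iΔEC* mice, with *Lum* and *Pdgfra* at 0 in all *TDP-43iΔEC* libraries. Microglia or macrophage genes summed to 0 to 3.77 CPM and 0.244 to 8.21 CPM with *Adgre1* at 0 in every library, and of the neutrophil and monocyte genes *S100a8*, *S100a9* and *Ccr2* were at 0 in every library. Mural cell genes (484 to 822 CPM and 393 to 1022 CPM), arterial genes (77.9 to 165 CPM and 63.8 to 128 CPM) and venous genes (709 to 1207 CPM and 736 to 1106 CPM) overlapped between the groups.

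Of 4 genes by which endothelium restrains platelets, 3 passed the filter and none had an unadjusted p under 0.05. *Nos3*, endothelial nitric oxide synthase, had a log2 fold change of -0.20 ± 0.21 (SE, limma), *Entpd1*, the ectonucleotidase CD39, one of -0.30 ± 0.20, and *Ptgis*, prostacyclin synthase, one of 0.12 ± 0.25. Exons of other genes lie opposite 32.7% of the exonic bases of *Nos3*, whose counts are uncertain to that extent. Their lowest adjusted p was 0.637, and without *TDP-43iΔEC* mouse 2 *Entpd1* had -0.48 (unadjusted p = 0.0356, limma).

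The profiles most like each member over the 6 libraries were found among 10831 genes by the root mean square difference of centred log2 CPM. *Ubb* (difference 0.0401) and *Dynll1* (0.0545) were nearest to *Vwf*, and *Cby1* (0.0740) and *Ndel1* (0.0920) to *Plat*. *Atf4* (0.0838) and *Calr* (0.109) were nearest to *Anxa2*. *Rarg* (0.119) and *Spsb1* (0.155) were nearest to *Thbd*, *Poglut3* (0.0744) and *Fam181b* (0.136) to *Procr*, and *Nup210* (0.162) and *Ndrg3* (0.181) to *Tfpi*. *Plau*, with its zeros, had no close neighbour, the nearest being *Plod2* (1.16) and *Zfp39* (1.22). These are descriptions over 6 points that share libraries and scaling.

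Upstream sequence was read for the 3 fibrinolysis genes that lay above the controls, with *Procr* as a member that shares a motif without a separated level. The printed genes were thus chosen by level or motif, so how many of them carry the motif is not a result. The sequences below are the 150 bases before the canonical GENCODE M39 transcript start, plus strand of GRCm39, 5′ to 3′, and capitals mark the AP-1 motif TGANTCA.
Anxa2 (chr9:69360752-69360901): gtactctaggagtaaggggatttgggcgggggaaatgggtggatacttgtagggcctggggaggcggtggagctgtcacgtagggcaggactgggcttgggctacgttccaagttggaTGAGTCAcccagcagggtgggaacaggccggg
S100a10 (chr3:93462063-93462212): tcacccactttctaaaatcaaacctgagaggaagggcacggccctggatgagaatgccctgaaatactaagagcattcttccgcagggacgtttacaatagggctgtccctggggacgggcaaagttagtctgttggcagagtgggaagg
Plaur (chr7:24161725-24161874): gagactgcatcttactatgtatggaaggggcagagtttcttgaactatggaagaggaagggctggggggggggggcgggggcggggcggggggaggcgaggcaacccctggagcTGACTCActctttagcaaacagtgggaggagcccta
Procr (chr2:155592881-155593030): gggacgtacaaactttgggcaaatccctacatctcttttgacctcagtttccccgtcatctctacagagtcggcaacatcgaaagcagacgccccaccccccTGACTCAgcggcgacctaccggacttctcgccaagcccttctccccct

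Searched on both strands over 250 bases, TGANTCA occurred in 4.59% of 13059 promoters of tested genes. It started 32 bases before the start of *Anxa2*, 36 before that of *Plaur*, 48 before that of *Procr*, and 146 and 135 before that of *F3*. *S100a10* had no match, and neither had *Vwf*, *Thbd*, *Tfpi*, *Plat*, *Plau* or *Serpine2*. The motif was thus present in a member at the floor of detection (*F3*), in one whose groups overlapped (*Procr*) and in *Anxa2*. The shorter KLF motif CACCC, searched in the same way, occurred in 54.6% of promoters, among them those of *Vwf*, *Procr*, *F3*, *Plat*, *Anxa2* and *S100a10*. The ETS motif GGAAG occurred in 66.2%, among them *Vwf*, *Thbd*, *Tfpi*, *Plat*, *Plau*, *S100a10*, *Plaur* and *Serpine2*. The hypoxia element ACGTG occurred in 20.6%, among them *Vwf*, *Thbd*, *Tfpi*, *Anxa2* and *Serpine2*. The TATA box TATAAA (8%) and an NF-kB motif (8.06%) had no match in any member. A match is a description of the sequence, and binding was not measured here.

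TDP-43 binds RNA rich in UG repeats, and TG runs were therefore counted on the sense strand of the unspliced genes. A run of at least 4 repeats occurred in 80.7% of 13060 tested genes, with a median longest run of 15 repeats. *Vwf* held 45 such runs, the longest of 24 repeats, and *Tfpi* 7 runs, the longest of 26, a length reached in 11.8% of genes. *Anxa2* held 16 runs with a longest of 20 repeats, reached in 37.1% of genes. *S100a10* (longest 8), *Plaur* (longest 11), *Procr* (longest 10), *Thbd* (longest 12) and *Plat* (longest 7) had shorter runs, and *Plau* had none. *F3* had a longest run of 22 repeats, and *Serpine2* one of 26, as in *Tfpi*. Per 100 kb of gene the median of all tested genes was 20.2 runs. *Plaur* (66.6), *S100a10* (48.8), *Procr* (45.8), *Anxa2* (41.5), *F3* (40.9), *Vwf* (32.2) and *Serpine2* (21.1) lay above it. *Tfpi* (15.9), *Thbd* (14.6), *Plat* (7.95) and *Plau* lay below it.

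**Figure D5:**
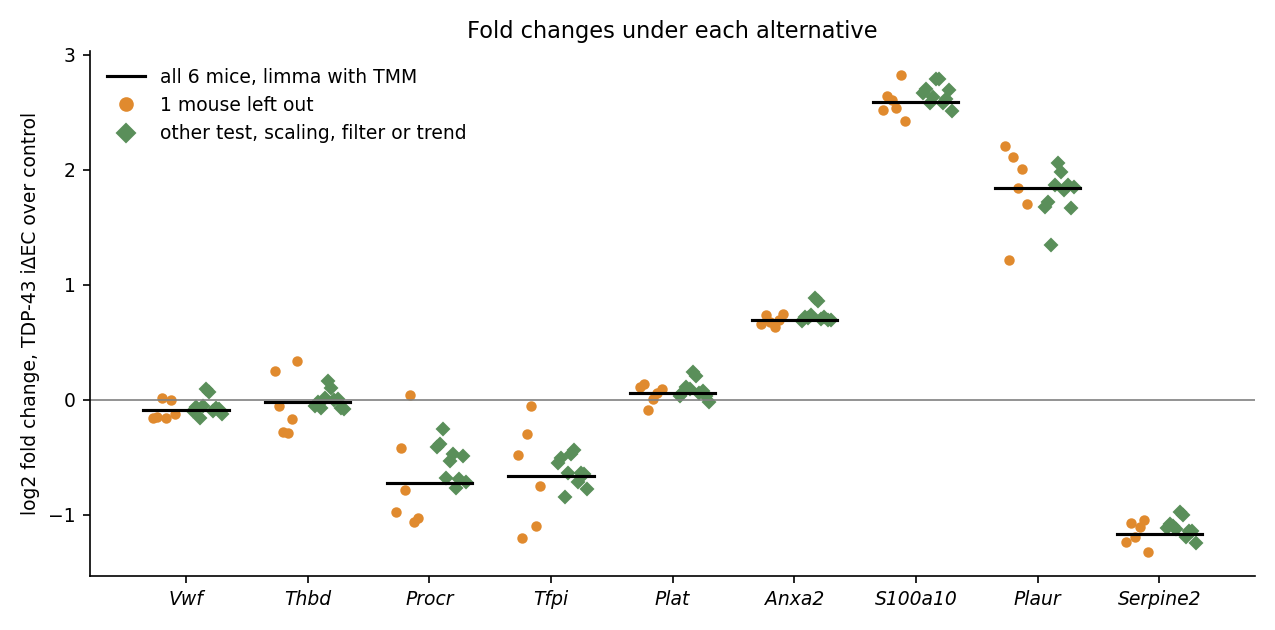
Log2 fold change (*TDP-43iΔEC* over control) of the members and partner genes with all 6 mice in limma (black line), with each mouse left out (orange) and under other tests, scalings, filters and trends (green). *Anxa2* stays between 0.63 and 0.88 and *Serpine2* between -1.32 and -0.97, while *Procr* and *Tfpi* move towards 0 without *TDP-43iΔEC* mouse 1.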

How the data were processed

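ECs were sorted by FACS from spinal cords of 3 control and 3 *TDP-43iΔEC* mice, and amplified low-input SMARTseq2 libraries, without molecular identifiers or strand, were sequenced. The authors aligned reads to GRCm39 with STAR 2.7.8a and GENCODE M30 and deposited estimated counts per gene from RSEM 1.3.0, as whole numbers (0 values were not whole). Groups came from the labels. Low genes were removed by edgeR 4.0.16 (filterByExpr, default settings) and libraries scaled by TMM. The genotypes were then compared with limma-voom (limma 3.58.1, R 4.3.3) without covariates, with Benjamini-Hochberg adjustment over all tested genes and a threshold of 0.05. Normalized counts were deposited counts divided by DESeq2 1.42.0 size factors. The fit was tested on simulated data. Gene pairs were compared by log2 count ratio (0.5 added) with exact permutation tests over 4 pairs. A planned pair, *F3* with *Tfpi*, was left untested because *F3* had at most 2 counts. A planned list gene and its pair are not reported here. Positions, lengths and sequences were taken from GRCm39 and GENCODE M39, which matched 98.7% of gene identifiers. The members and the gene lists were chosen with earlier results of these data known. Named list genes are the 3 most abundant per length, the lowest p in each direction, ratio partners and others given as values. Alternatives covered the test (edgeR, DESeq2, quality weights), scaling, filter, GC and length trend, replicate block and each mouse left out. Total counts per library limit the precision of low genes to a floor of 3 counts.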

Additional observations from a re-analysis of the deposited data

How the results depend on the processing

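With limma 18 genes passed the threshold, of which none was a member. The count was 0 with edgeR (848 at an unadjusted p under 0.05, lowest adjusted p 0.0504), 250 with DESeq2, 10 with library size only, 0 with endothelial marker scaling (1030 at an unadjusted p under 0.05), 76 without a filter, 39 with at least 10 counts in every library, 8 with the GC and length trend removed, 31 at an adjusted p under 0.1, and 0 to 13 with a mouse left out. Members past the threshold numbered 1 (*Anxa2*) with DESeq2 and without a filter, and list genes 3 with DESeq2 and 1 each without a filter and with at least 10 counts. Without control mouse 2, 2 members had an unadjusted p under 0.05 and 3 had groups that did not overlap, against 9.15% and 23.3% of all genes tested in that fit, and these counts were 1 in the other fits with a mouse left out.

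Same-numbered mice had deviations that correlated at -0.06, -0.13 and -0.03, and differently numbered mice at -0.04 to 0.12. With 3 libraries per group these values cannot show whether the mice were paired, and the labels give only the numbers. With the replicate block 22 genes passed the threshold, none of them a member, and *Anxa2* had a log2 fold change of 0.69 (adjusted p = 0.156).

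Of 444 fold changes recomputed for 28 genes, 403 kept direction and side of the threshold, 8 passed it and 33 changed sign, the lowest unadjusted p among these being 0.344. The causes were not tested. Log2 fold changes with the sign turned were 0.10 (library size) and 0.070 (endothelial scaling) for *Vwf*; 0.015 (DESeq2 size factors), 0.16 (library size), 0.10 (endothelial scaling) and 0.00175 (at least 10 counts) for *Thbd*; and -0.017 (trend removed) for *Plat*. They were -0.71 (quality weights) for *Mmrn1*, 0.023 (DESeq2) for *Itga2b*, -0.022 (trend removed) for *Klf4*, 0.046 (library size) and 0.038 (endothelial scaling) for *Vkorc1*, -0.00158 (edgeR) and -0.00594 (replicate block) for *Mcfd2*, and 0.082 (quality weights) for *Lman1*. With a mouse left out the log2 fold changes ran from -0.16 to 0.011 for *Vwf*, -0.29 to 0.33 for *Thbd*, -1.07 to 0.043 for *Procr*, -0.093 to 0.13 for *Plat*, -0.28 to 4.68 for *Cd63*, -0.69 to 4.66 for *Mmrn1*, -1.33 to 0.85 for *Itga2b*, -0.25 to 0.28 for *Klf4*, -0.16 to 0.16 for *Mcfd2* and -0.51 to 0.062 for *Lman1*. The *Thbd* to *Procr* log2 ratio differed by -0.37 to 1.18 with a mouse left out, the lowest without *TDP-43iΔEC* mouse 1. Library size alone moved the median log2 fold change of all genes from -0.02 to 0.18, endothelial scaling to 0.15, and leaving out control mouse 2 to -0.17.

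Levels per length rest on GENCODE M39 models rather than the M30 set used for counting. Counts of *F3* and *Plau* lie at or near 0, so that fold changes of *F3* cannot be given and those of *Plau* are imprecise.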
